A study of Mus musculus with 20 samples.

Results

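Germline stem cells (GSC) of the mouse testis were compared with neural stem cells (NSC) on expression arrays, gene by gene. The comparison used 3 arrays of GSC and 3 arrays of NSC, which are 6 of the 20 arrays of the series. Every gene that the array's annotation names was a member, with 1 probe set per gene, the one of highest mean over the 20 arrays. This gave 18193 genes. The level of a gene is the log2 of its normalised intensity, so that a difference of 1 is a factor of 2. A difference is GSC minus NSC throughout, and a gene was called when its difference reached 2-fold with an adjusted p under 0.05 in the limma fit.

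The GSC had been established in culture from testes of Oct4-GFP mice of the OG2 strain (B6;CBA-Tg[Pou5f1-EGFP]2Mnn/J), in which the Pou5f1 promoter drives a green fluorescent protein. They were grown without serum in a StemPro-34 medium with EGF at 20 ng/ml, bFGF at 10 ng/ml, GDNF at 10 ng/ml and LIF, on fibroblast feeders stopped with mitomycin C. The NSC had been derived from embryonic stem cells that carry an Olig2-GFP reporter. They are therefore the product of differentiation in culture and were not taken from brain, and the details of their medium are not given in the sources used here. The labels give neither the age of the mice nor which arrays came from separate cultures, so the p-values measure the spread between these arrays, which may be technical. The other 14 arrays, of embryonic stem cells (ESC), embryonic fibroblasts (MEF) and cells derived from GSC, served to estimate the spread and to show where else a gene was measured.

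Both cell types are unipotent or multipotent stem cells that can be expanded for long periods on a few growth factors. Spermatogonial stem cells depend on GDNF, which acts through the receptor Ret and its partner Gfra1, and they keep a germ cell programme of RNA-binding proteins and small RNAs that silence transposons. Neural stem cells in culture resemble radial glia, divide under EGF and FGF, and can form neurons, astrocytes and oligodendrocytes.

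The arrays of each type were close to each other. Across all genes the correlation was 0.991 to 0.992 between GSC arrays and 0.995 to 0.996 between NSC arrays, against 0.856 to 0.860 between a GSC and an NSC array. These are correlations across genes within these arrays, and genes are not independent replicates. Of the 18193 genes, 4877 were called, which is 26.8%. The calls comprised 2663 genes higher in GSC (14.6%) and 2214 genes higher in NSC (12.2%). The arrays of both groups did not overlap at all for 60.5% of genes, so that a lack of overlap is common here. A difference of at least 16-fold was reached by 181 genes in the direction of GSC and by 151 in the direction of NSC. The median difference over all genes was 0.09. Levels near 3 to 4 are at the dim end of these arrays, whose median is 4.97, and no detection calls were used here, so a large fold against such a level depends on the array's background.

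**Figure D1:**
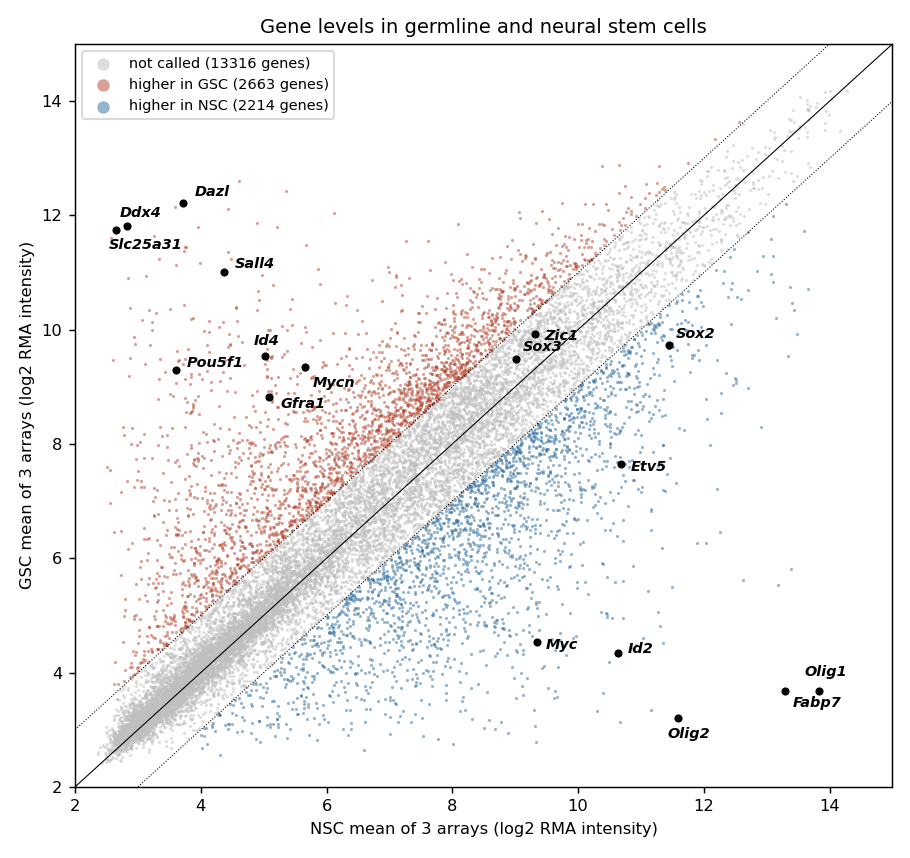
Mean level of each of the 18193 genes in NSC (x axis) and GSC (y axis), both as log2 RMA intensity over 3 arrays; the dotted lines mark a 2-fold difference. Red points are the 2663 genes called higher in GSC and blue points the 2214 called higher in NSC; Ddx4, Dazl and Slc25a31 lie far above the diagonal, Olig1, Olig2 and Fabp7 far below it, and Sox3 and Zic1 near it.

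The labels were first set against marker genes. All 10 measured markers of germline stem cells were called, 9 of them higher in GSC, among them Dazl, Ddx4, Gfra1, Ret, Zbtb16 and Uchl1. The exception was Etv5, a transcription factor that GDNF induces in spermatogonia. It read 8.32, 7.39 and 7.24 on the GSC arrays and 10.52, 10.74 and 10.81 on the NSC arrays. Every NSC array was above every GSC array, and the difference was -3.04 (SE 0.25, adjusted p = 1.45e-09). Of 11 measured NSC markers, 8 were higher in NSC. Sox1, Msi1 and Nr2e1 were not called. Sox1, a transcription factor of early neuroectoderm, was at 4.26 ± 0.15 in GSC and 4.28 ± 0.30 in NSC (SD, n = 3), although another of its probe sets differed by -1.89. Nr2e1, a nuclear receptor of adult neural stem cells, was at 3.90 ± 0.32 and 3.46 ± 0.23, and with its probe sets averaged it was called higher in GSC (1.08).

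Markers of other cell types were read beside these. Of 15 fibroblast markers, 8 were higher in GSC and 2 higher in NSC. Their summed intensity was 2185 to 2595 on the GSC arrays, 1285 to 1571 on the NSC arrays and 44264 to 46428 on the MEF arrays. A further 46 genes had a mean above 10 in MEF and means more than 5 lower in ESC and NSC. Their ESC level was subtracted from the linear intensities of each array and of MEF. After this subtraction the GSC arrays stood at a median of 0.598%, 1.08% and 0.840% of MEF. The NSC arrays stood at -0.0798%, -0.209% and -0.187%, with genes selected as low in NSC. The feeders were of the MEF type. Of 10 macrophage and blood markers, 5 were higher in GSC. The lysozyme gene Lyz2 was at 10.96 ± 0.07 in GSC against 4.98 ± 0.62 in NSC, and the complement gene C1qb at 7.39 ± 0.18 against 3.74 ± 0.06. The leukocyte marker Ptprc was low in both, at 3.84 ± 0.10 in GSC and 3.15 ± 0.10 in NSC. The summed macrophage markers were 2580 to 2733 in GSC and 246 to 275 in NSC. None of 9 Leydig and peritubular markers and none of 10 neuron markers was called, and 7 and 9 of these, in this order, were under 6 in both groups. Of 12 Sertoli markers 4 were higher in GSC (Wt1, Dmrt1, Ctsl and Tfcp2l1, the last 2 only with the probe sets chosen here), 2 were higher in NSC (Sox9 by -2.19, and Inhbb by -2.03 or, with its probe sets averaged, an uncalled -0.96), and Amh, Fshr and Gata4 were among the 6 not called. The median over the set was -0.05. Of the other marker sets, 1 of 8 endothelial genes was higher in NSC, 2 of 7 oligodendrocyte genes were higher in GSC, and 3 of 6 astrocyte genes were higher in NSC. Over all genes 26.8% were called, 14.6% higher in GSC and 12.2% higher in NSC. The part of feeder or blood cells in the results was not tested. In bulk samples such as these, fewer cells of a type and less RNA per cell cannot be told apart.

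The germ cell programme gave the largest differences in the direction of GSC. In the list of RNA helicases, translation factors and piRNA genes, 26 of 34 measured members were higher in GSC and none higher in NSC, with a median difference of 3.95 against 0.09 over all genes. Called members made up 76.5%, against 26.8% of all genes. Ddx4, the germ cell RNA helicase also known as Vasa, read 11.95, 11.79 and 11.68 on the GSC arrays and 2.61, 2.62 and 3.23 on the NSC arrays. The groups were far apart, at 507-fold (difference 8.99, SE 0.25, adjusted p = 4.75e-17). NSC was not typical of the other groups, since the mean of Ddx4 was 7.17 in MEF and 5.83 in ESC. Dazl, an RNA-binding protein that activates translation in germ cells, read 12.25, 12.14 and 12.25 against 3.65, 3.61 and 3.90. Its difference was 8.49 (SE 0.15, adjusted p = 5.05e-20). Mael, which acts in piRNA-guided transposon silencing, read 11.69, 11.50 and 11.64 against 2.48, 2.73 and 2.48, a difference of 9.05 (SE 0.34, adjusted p = 3.82e-15). Gtsf1, a cofactor of Piwi proteins, and Piwil2, the Piwi protein of early male germ cells, differed by 7.84 and 7.66. Among members not called, Tdrd3, a Tudor protein of somatic cells as well, was at 8.09 ± 0.16 and 8.14 ± 0.05, and Ddx39a, a helicase of general mRNA export, at 11.02 ± 0.05 and 11.24 ± 0.03. Boll, a later relative of Dazl, was at 4.83 ± 0.08 and 5.18 ± 0.24 and not called, but with its probe sets averaged it was called higher in GSC (1.72). Tdrd3 was likewise called with its probe sets averaged (-1.03).

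A second germ cell group holds testis forms of common enzymes and genes of the X and Y chromosomes. Of its 22 measured members 13 were higher in GSC and none in NSC, with a median of 2.90. Called members made up 59.1%, against 26.8% of all genes. Slc25a31, the germ cell ADP/ATP carrier of mitochondria, had the largest difference of all genes toward GSC. It read 11.77, 11.78 and 11.70 in GSC and 2.63, 2.57 and 2.77 in NSC, or 547-fold (SE 0.16 on the log2 scale, adjusted p = 5.4e-20). Taf7l, a germ cell form of a subunit of the general transcription factor TFIID, read 11.61, 11.45 and 11.27 against 3.89, 3.67 and 3.71, and Nxf2, a testis mRNA export factor, differed by 8.38. Uba1y, a Y-linked ubiquitin-activating enzyme, differed by 7.68, with the limit that its X-linked copy Uba1 is similar in sequence.

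The stretches of 250 bases before the RefSeq start sites of some of these genes are shown because they hold short motifs that a minority of the strongest GSC genes carry. Coordinates are those of the build GRCm38.p6, and letters run 5′ to 3′ on the gene's strand. Capitals mark CACGTG, whose reverse complement is the same, and TTCCCGC on either strand. The CACGTG match lies 29 bases before the start in Ddx4, 93 in Slc25a31, 223 in Mael and 49 in Taf7l, and Ddx4 also has the second motif at 136.
Ddx4, chr13:112652311-112652560, minus strand: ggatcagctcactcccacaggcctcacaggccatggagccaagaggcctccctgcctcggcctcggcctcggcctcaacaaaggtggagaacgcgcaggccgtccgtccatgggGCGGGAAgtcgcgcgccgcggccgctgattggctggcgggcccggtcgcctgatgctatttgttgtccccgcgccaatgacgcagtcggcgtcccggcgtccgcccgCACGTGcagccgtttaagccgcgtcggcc
Slc25a31, chr3:40708621-40708870, plus strand: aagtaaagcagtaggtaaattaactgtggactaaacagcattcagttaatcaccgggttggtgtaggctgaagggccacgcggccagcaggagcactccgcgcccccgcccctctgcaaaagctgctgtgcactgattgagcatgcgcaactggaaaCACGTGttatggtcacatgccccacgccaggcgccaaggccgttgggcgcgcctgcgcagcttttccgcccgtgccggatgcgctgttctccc
Mael, chr1:166238745-166238994, minus strand: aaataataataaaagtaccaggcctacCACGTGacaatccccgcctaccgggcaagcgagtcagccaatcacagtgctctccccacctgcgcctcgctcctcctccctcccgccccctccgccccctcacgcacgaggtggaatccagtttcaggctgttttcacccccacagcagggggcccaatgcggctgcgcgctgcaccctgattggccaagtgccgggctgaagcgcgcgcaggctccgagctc
Taf7l, chrX:134476491-134476740, minus strand: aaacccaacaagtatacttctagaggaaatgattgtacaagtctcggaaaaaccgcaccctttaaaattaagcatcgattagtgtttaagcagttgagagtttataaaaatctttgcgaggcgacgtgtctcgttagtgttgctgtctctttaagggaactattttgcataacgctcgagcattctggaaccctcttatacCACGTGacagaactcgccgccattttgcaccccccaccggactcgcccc

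CACGTG, a form of the E-box, occurred in 28 of the 145 genes with a promoter in the table among those at least 16-fold higher in GSC, which is 19.3%. In the genes at least 16-fold higher in NSC it occurred in 2 of 114, or 1.8%, which were Fzd9 and Megf9. The difference of Megf9 was -4.07, and -0.99 without probe sets that can match several transcripts. The share over all 14452 array genes with a promoter was 8.7%, and 6.9% over all 27025 genes with a RefSeq promoter. It was 12.2% over all genes called higher in GSC and 7.6% over all called higher in NSC. In the piRNA list it was 8 of 27 genes (29.6%), and in the list of isoforms and X- or Y-linked genes 5 of 19 (26.3%). Shares above that of all array genes were also found in lists that are not of germ cells: 25.0% for Polycomb genes, 25.0% for G1 and p53 genes, 20.0% for cholesterol and fatty acid synthesis and 15.4% for neural transcription factors. A match of letters describes the sequence and is not a bound site. The Dazl window, on the minus strand, held neither motif.
Dazl, chr17:50293621-50293870, minus strand: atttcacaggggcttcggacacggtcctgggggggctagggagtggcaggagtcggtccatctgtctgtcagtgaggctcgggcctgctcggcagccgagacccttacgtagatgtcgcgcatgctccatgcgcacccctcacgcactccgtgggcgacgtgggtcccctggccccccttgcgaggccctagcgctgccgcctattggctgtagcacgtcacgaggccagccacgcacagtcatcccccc

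Genes of meiosis were high in the cultured GSC. Of 28 measured members of the list of synaptonemal complex, cohesin and recombination genes, 24 were higher in GSC and none higher in NSC, with a median of 3.89. Called members made up 85.7%, against 26.8% of all genes. Sycp3, a protein of the chromosome axis in meiosis, read 11.32, 11.46 and 11.28 in GSC and 4.48, 4.33 and 4.51 in NSC. The groups did not overlap, and the difference was 6.91 (SE 0.23, adjusted p = 4.73e-16). Sycp1 and Sycp2, further proteins of the synaptonemal complex, differed by 6.29 and 6.94. Tex11 and Tex15, which act in meiotic recombination and, for Tex15, in transposon silencing, differed by 7.10 and 6.98. Chosen after their values were seen, the meiotic cohesin subunits Smc1b and Stag3 were at 10.39 ± 0.26 and 10.67 ± 0.15 in GSC against 4.55 ± 0.33 and 4.91 ± 0.04 in NSC. Prdm9, the histone methyltransferase that places meiotic breaks, was not called, at 4.70 ± 0.13 and 4.63 ± 0.23. Ythdc2, needed to leave the mitotic programme, was at 6.71 ± 0.26 and 6.84 ± 0.04. Psmc3ip, a recombination cofactor, was slightly lower in GSC, by -0.52 (adjusted p = 0.00217), and stayed under the 2-fold limit.

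The promoters of Sycp3, Stag3 and Smc1b are shown as meiotic genes that hold CACGTG, the second motif TTCCCGC, which resembles an E2F site, or both. TTCCCGC was present in 9 of the 24 meiotic genes with a promoter, or 37.5%, against 6.6% of the array genes. Lists that are not of germ cells also had shares above that of the array genes, among them 25.0% for G1 and p53 genes and 11.5% for Notch genes. The lists of chromatin and lipid synthesis genes were above it too, while others were below it, such as neural transcription factors at 2.6%. Among the genes at least 16-fold higher in GSC the share was 10.3%. In Sycp3 it begins 147 bases before the start, with CACGTG at 64 and 43. In Smc1b it lies at 48, without CACGTG. Stag3 has CACGTG at 170 and no TTCCCGC.
Sycp3, chr10:88459337-88459586, plus strand: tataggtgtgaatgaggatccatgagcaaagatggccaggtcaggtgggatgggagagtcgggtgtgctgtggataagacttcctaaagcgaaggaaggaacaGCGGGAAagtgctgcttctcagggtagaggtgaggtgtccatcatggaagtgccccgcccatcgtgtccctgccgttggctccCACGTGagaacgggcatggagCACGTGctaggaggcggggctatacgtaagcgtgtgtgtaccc
Stag3, chr5:138280259-138280508, plus strand: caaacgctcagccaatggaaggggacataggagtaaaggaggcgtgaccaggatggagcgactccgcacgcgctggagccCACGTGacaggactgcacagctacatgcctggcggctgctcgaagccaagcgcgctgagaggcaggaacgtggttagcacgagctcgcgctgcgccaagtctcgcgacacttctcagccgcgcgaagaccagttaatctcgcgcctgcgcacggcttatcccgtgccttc
Smc1b, chr15:85131958-85132207, minus strand: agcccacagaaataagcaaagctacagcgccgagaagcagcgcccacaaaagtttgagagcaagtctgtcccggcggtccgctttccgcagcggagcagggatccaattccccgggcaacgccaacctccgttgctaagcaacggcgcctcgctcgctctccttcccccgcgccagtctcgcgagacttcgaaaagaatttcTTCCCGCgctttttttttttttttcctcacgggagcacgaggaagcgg

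Genes of later sperm development did not follow. Of 32 measured spermatid and sperm genes, 6 were higher in GSC, 1 was higher in NSC and 25 were not called, with a median difference of 0.16. Over all genes the share higher in GSC was 14.6%. Pdha2, the testis form of the pyruvate dehydrogenase E1 alpha subunit, was the exception in size, at 8.21, 8.18 and 8.04 in GSC and 3.40, 3.28 and 3.48 in NSC (difference 4.76, SE 0.15, adjusted p = 2.13e-16). Ldhc, the sperm lactate dehydrogenase, was at 6.33 ± 0.19 against 4.49 ± 0.10. Tekt2, of the sperm tail, and Spaca1, of the acrosome, differed by 2.52 and 2.26 at levels of 6.57 ± 0.16 and 5.28 ± 0.09 in GSC. The spermatid kinases Tssk1 and Tssk2 and the protamine Prm3 were below the array median in both groups, with differences of 0.03, -0.04 and -0.03. Spata6 was the member higher in NSC (-1.04), and it lost its call with its probe sets averaged (-0.67) and without GSC replicate 2 (-0.91), GSC replicate 3 (-0.95) or NSC replicate 1 (-0.96). Restricted to genes that reach 6 in either group, the list kept 8 members, of which 3 were higher in GSC. Under this limit 2336 of all 10251 genes were higher in GSC. A gene can pass the limit through the group where it is high, as Pdha2, Ldhc and Tekt2 did.

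**Figure D2:**
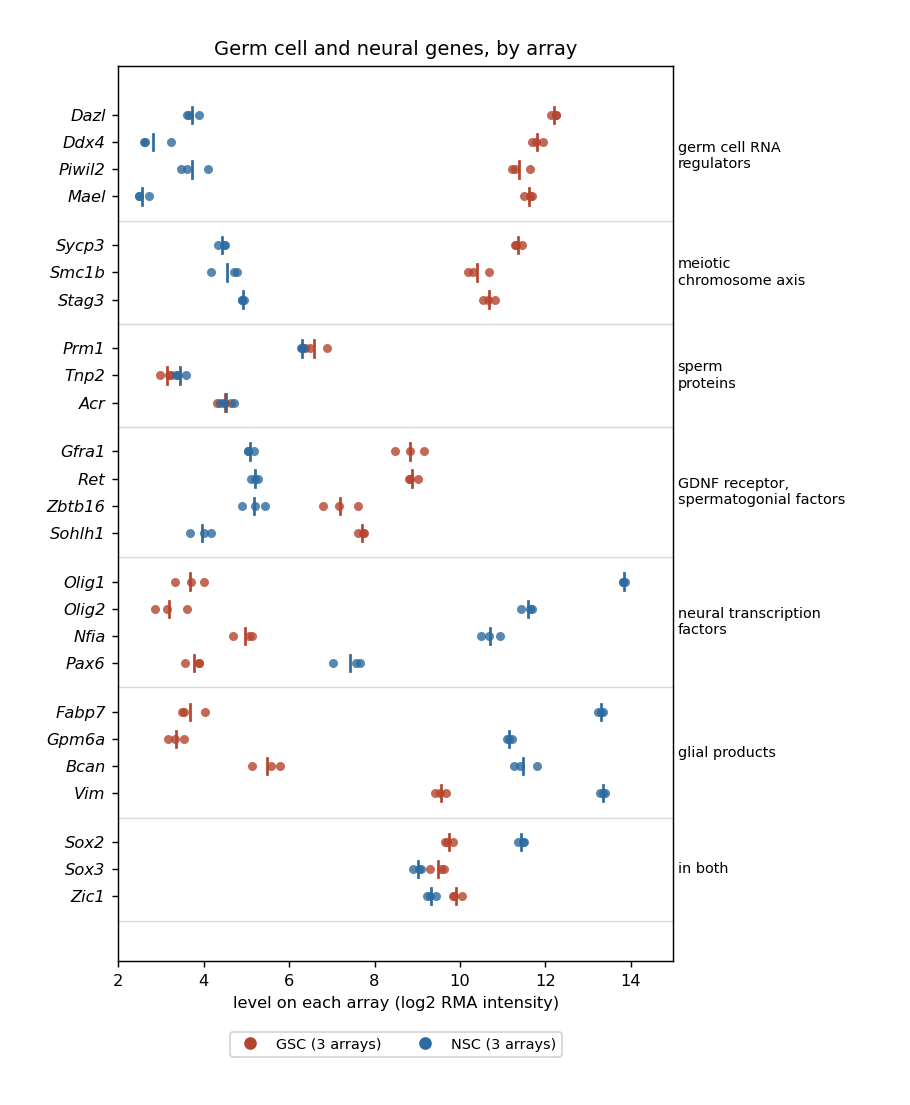
Level of germ cell and neural genes on each array (x axis, log2 RMA intensity); points are single arrays, red for GSC and blue for NSC, and short bars are the means of 3 arrays. Germ cell RNA regulators and meiotic axis genes sit at 10 to 12 in GSC, the sperm genes Prm1, Tnp2 and Acr lie close together in both groups, neural factors and glial products are high in NSC, and Sox2, Sox3 and Zic1 are high in both.

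Receptors, surface proteins and regulators of spermatogonia formed a mixed group. Of 38 measured members, 24 were higher in GSC, 4 higher in NSC and 10 not called, with a median of 2.07. Called members made up 73.7%, against 26.8% of all genes. Gfra1, the GDNF-binding co-receptor, read 9.16, 8.84 and 8.48 in GSC and 5.18, 5.04 and 5.04 in NSC. Ret, the kinase that signals for GDNF, read 9.02, 8.83 and 8.81 against 5.26, 5.11 and 5.20. Both groups of arrays were fully apart, with differences of 3.74 and 3.70 (adjusted p = 1.68e-14 and 6.3e-15). Larger still were Lin28a, which blocks let-7 processing, at 226-fold, Dmrt1, a male germ cell transcription factor, at 208-fold, and Sall4, a zinc finger factor of stem cells, at 100.5-fold. Zbtb16, known as PLZF and required for self-renewal of spermatogonial stem cells, was 4.04-fold higher, at 7.19 ± 0.41 against 5.17 ± 0.27. Tex101, a germ cell surface protein, differed by 7.54, and Uchl1, a deubiquitinase of spermatogonia and neurons, by 3.76, at 11.85 ± 0.14 in GSC and 8.09 ± 0.17 in NSC.

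Some factors known from spermatogonial stem cells were as high or higher in the neural cells. Itga6, the laminin receptor subunit used to sort spermatogonial stem cells, read 9.25, 9.03 and 9.0 in GSC and 9.04, 8.96 and 8.97 in NSC. The ranges overlapped, and the difference was 0.10 (95% interval -0.14 to 0.35, adjusted p = 0.489). Adgra3, known as Gpr125 and another spermatogonial surface marker, differed by 0.05 (95% interval -0.23 to 0.34). Thy1, a surface protein used for the same purpose, was higher in NSC by 2.18 on the log2 scale (difference -2.18), and Itgb1, the partner of Itga6, differed by -1.81, or by -0.93 with its probe sets averaged, which is under 2-fold. Pou3f1, a POU factor that acts in spermatogonia and in neural progenitors, was at 7.34 ± 0.08 in GSC and 9.61 ± 0.09 in NSC. Chosen after their values were seen, the SoxB1 factor Sox3 and the zinc finger factor Zic1 were high in both. Sox3 was at 9.49 ± 0.17 and 9.01 ± 0.09 and Zic1 at 9.92 ± 0.10 and 9.32 ± 0.10, differences of 0.48 and 0.60 that were not called, and another probe set of Zic1 differed by -3.35. With its probe sets averaged, Zic1 was called higher in NSC (-1.37).

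Pluripotency factors were partly present in GSC. Of 27 measured, 13 were higher in GSC, 3 higher in NSC and 11 not called, or 59.3% called against 26.8% of all genes. Pou5f1, the POU factor Oct4 whose promoter drives the reporter of these mice, read 9.20, 9.15 and 9.53 in GSC and 3.65, 3.58 and 3.60 in NSC (difference 5.68, SE 0.17, adjusted p = 8.27e-17). Its mean on the ESC arrays was 12.35. Zfp42, Tcl1 and Dppa5a, which are markers of ESC, differed by 4.14, 4.78 and 4.23, and they too were below their ESC means. Nanog, chosen after its values were seen, was low in both, at 3.96 ± 0.13 and 3.42 ± 0.15, against 11.34 in ESC. Prdm14, Gdf3 and Fgf4 were not called, at levels of 3.88 to 5.34. Sox2, the factor common to pluripotent and neural cells, was at 9.73 ± 0.10 in GSC and 11.44 ± 0.08 in NSC, a difference of -1.71 (SE 0.15, adjusted p = 3.47e-09). Sall1 was also higher in NSC, by a difference of -2.28.

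Neural transcription factors marked the other side. Of 49 measured, 25 were higher in NSC and none higher in GSC, with a median of -1.14. Called members made up 51.0%, against 26.8% of all genes. Olig1, a helix-loop-helix factor of the oligodendrocyte lineage, had the largest difference of all genes. It read 4.01, 3.33 and 3.71 in GSC and 13.86, 13.83 and 13.82 in NSC, or 1137-fold (SE 0.96 on the log2 scale, adjusted p = 1.01e-08). Olig2, its neighbour on chromosome 16 and the gene of the reporter in the source cells, read 3.13, 3.61 and 2.85 against 11.44, 11.69 and 11.64. Neither gene had overlapping groups. Nfia, a factor of the switch to glia, Pou3f3, a POU factor of neural progenitors, and Nr2f1, an orphan nuclear receptor that patterns the cortex, differed by -5.75, -5.58 and -5.41. Pax6, a master factor of dorsal forebrain progenitors, was at 3.78 ± 0.19 in GSC and 7.42 ± 0.35 in NSC. The forebrain factors Dlx5 and Otx1 were under 4 in both groups, with differences of 0.03 and -0.04.

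Products of radial glia and astroglia gave the highest share of NSC calls of the 30 lists, 26 of 37, with a median of -2.63 and no member higher in GSC. This share was 70.3%, against 12.2% of all genes. Fabp7, the brain fatty acid binding protein of radial glia, read 3.53, 4.04 and 3.49 in GSC and 13.30, 13.36 and 13.23 in NSC. The difference was -9.61 (SE 0.23, adjusted p = 2.55e-18). Gpm6a and Gpm6b, membrane glycoproteins of neural cells, differed by -7.81 and -7.63. Ptprz1, a receptor phosphatase of glial progenitors, differed by -6.44, and its ligand Ptn by -7.00. In MEF the means of Ptprz1 and Fabp7 were 8.29 and 6.20, above those in GSC. Sparcl1, a matrix protein of astroglia, differed by -6.75. The intermediate filament genes went different ways in size. Nes, the marker nestin, was at 7.91 ± 0.18 in GSC and 9.64 ± 0.19 in NSC and was under 2-fold with its probe sets averaged (-0.95), whereas Gfap, the filament of mature astrocytes, was not called, at 5.22 ± 0.12 and 5.12 ± 0.10. Glul, glutamine synthetase, was high in both, at 10.04 ± 0.16 and 10.08 ± 0.09. Vim and Bcan, chosen after their values were seen, encode vimentin and the brain proteoglycan brevican, and differed by -3.80 and -5.99.

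The windows before the starts of Olig2 and Fabp7 are given for contrast with those of the germ cell genes. Neither holds CACGTG. Olig2 has TTCCCGC at 63 bases before the start, and Fabp7 has neither motif.
Olig2, chr16:91225300-91225549, plus strand: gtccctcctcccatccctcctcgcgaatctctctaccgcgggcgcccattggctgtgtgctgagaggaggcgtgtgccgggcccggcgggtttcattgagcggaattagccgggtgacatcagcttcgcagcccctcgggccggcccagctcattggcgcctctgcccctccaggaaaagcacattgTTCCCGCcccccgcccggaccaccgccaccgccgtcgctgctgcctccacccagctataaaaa
Fabp7, chr10:57784673-57784922, plus strand: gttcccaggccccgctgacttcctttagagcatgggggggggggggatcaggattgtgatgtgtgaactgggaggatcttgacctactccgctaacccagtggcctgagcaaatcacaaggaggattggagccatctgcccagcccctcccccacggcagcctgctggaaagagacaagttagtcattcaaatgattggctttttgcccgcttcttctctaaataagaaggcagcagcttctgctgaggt

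Genes of differentiated neural cells were called about as often as all genes, 23.5% of the oligodendrocyte list and 29.4% of the neuron list against 26.8%. Of 17 oligodendrocyte genes 1 was higher in NSC, the myelin gene Bcas1 (-2.53), and 3 were higher in GSC. These were Pdgfra, the receptor of oligodendrocyte precursors and of fibroblasts, at 7.23 ± 0.09 against 4.87 ± 0.18 and 9.73 in MEF, Mbp and Myrf. Myrf lost its call under both scalings of the arrays (0.97 and 1.00, under the limit before rounding) and without GSC replicate 1 (0.95) or NSC replicate 2 (0.96). The groups of Sox10 overlapped, at 6.19 ± 0.41 and 6.17 ± 0.08. Of 34 neuron genes 7 were higher in NSC and 3 higher in GSC. Map2, a microtubule protein of dendrites, read 3.23, 3.29 and 2.89 in GSC and 10.67, 10.88 and 10.45 in NSC, and Gap43, of growing axons, differed by -6.48. Neurod1 differed by -3.87. Dcx and Snap25, of migrating and of mature neurons, were under 5 in both groups. The neurofilament genes Nefm and Nefh were higher in GSC instead. Nefm read 8.52, 8.46 and 8.44 in GSC and 4.56, 4.62 and 4.43 in NSC (difference 3.94, SE 0.17, adjusted p = 3.07e-14), and Nefh differed by 4.10. A further filament gene, Ina, differed by 1.06, a call that was lost under both scalings (0.98 and 0.96) and without GSC replicate 1 (0.94).

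Growth factor genes lay on both sides. In the list of GDNF, FGF and EGF genes, 11 of 46 were higher in GSC and 17 higher in NSC. Together these made up 60.9%, against 26.8% of all genes. Toward NSC lay targets and feedback inhibitors of ERK signalling. Dusp6, an ERK phosphatase, read 7.90, 7.60 and 7.37 in GSC and 11.17, 11.49 and 11.13 in NSC (difference -3.64, SE 0.14, adjusted p = 5.6e-15). Dusp4, a related phosphatase, and Spry4, a Sprouty inhibitor, differed by -4.37 and -3.96. Chosen after their values were seen, Spry1 and Spry2 differed by -2.84 each and Etv4, a relative of Etv5, by -1.37. None of these 7 genes, Etv5 included, had overlapping groups, but all 7 were called genes, and 60.5% of all genes had no overlap. Fgf1, a ligand, was at 3.73 ± 0.20 and 7.18 ± 0.38, while Fgf2 and Fgf5 were under 4 in both groups.

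Among the members higher in GSC, the largest difference was that of Socs3. Socs3, the inhibitor that Stat3 induces, read 11.21, 10.97 and 11.01 in GSC and 5.89, 5.90 and 5.78 in NSC, or 36.9-fold (adjusted p = 9.24e-18). Stat3 and the shared receptor chain Il6st, chosen after their values were seen, differed by 2.09 and 1.02. The call of Il6st was lost under 7 alternatives at the 2-fold threshold, both scalings among them (0.92 each). The LIF receptor Lifr, named after its values were seen, was not called and lay the other way, at 8.38 ± 0.22 in GSC and 9.33 ± 0.10 in NSC (-0.95). It was called higher in NSC under both scalings (-1.06 and -1.04) and without 1 GSC array (-1.06). Erbb3, a neuregulin receptor, differed by 2.87, and Igf2 by 3.32, with a MEF mean of 12.28. Leaving out genes whose MEF mean exceeded the NSC mean by 4-fold or more, called MEF-high genes below, brought the GSC count of the list from 11 to 7. This filter uses the NSC level and removes genes low in NSC more readily. A fall of the GSC counts under it is therefore partly built in. Over all genes it brought the GSC count from 2663 to 2369 and the NSC count from 2214 to 2157.

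The Myc, Id and cadherin families each had members called in opposite directions. The other measured Id genes, among them Id1 (0.16, chosen after its values were seen), and the other measured Myc family gene were not called. Apart from Cdh1, the cadherins of the junction list were higher in NSC or not called. Myc, the transcription factor of growth, read 4.75, 4.50 and 4.34 in GSC and 9.30, 9.67 and 9.04 in NSC. Mycn, chosen after its values were seen, read 9.64, 8.99 and 9.41 against 5.79, 5.47 and 5.72. The 2 genes thus differed by -4.81 and 3.69 (adjusted p = 5.19e-12 and 9.65e-11), with no overlap for either. Among the Id proteins, which block helix-loop-helix factors, Id4 was at 9.55 ± 0.08 in GSC and 5.02 ± 0.24 in NSC, and Id2 at 4.34 ± 0.12 and 10.64 ± 0.07. The Id2 difference of -6.30 shrank to -0.87 when probe sets that can match several transcripts were left out. Of the cell adhesion genes, the epithelial proteins Epcam and F11r differed by 4.91 and 4.94, and Pkp2, of desmosomes, by 4.73. N-cadherin, Cdh2, read 6.17, 6.08 and 5.52 in GSC and 10.47, 10.45 and 10.19 in NSC, and E-cadherin, Cdh1, chosen after its values were seen, read 4.31, 5.46 and 5.20 against 2.48, 2.67 and 3.19. Of 35 junction genes 10 were higher in GSC and 7 higher in NSC, or 48.6% called against 26.8% of all genes. The count higher in GSC was 6 without the MEF-high genes.

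Energy metabolism showed a similar split for some related genes. The list of glycolysis, lactate and linked genes had 9 of 33 members higher in GSC and 10 higher in NSC. Together these made up 57.6%, against 26.8% of all genes. Tktl1, a transketolase-like protein of germ cells, read 11.15, 11.32 and 11.26 in GSC and 3.20, 3.48 and 3.31 in NSC, while Tkt, the common transketolase, read 10.90, 10.78 and 10.85 against 13.12, 13.18 and 13.02. Neither overlapped, and the differences were 7.92 and -2.26 (adjusted p = 1e-18 and 1.9e-14). Beside the germ cell carrier Slc25a31, the common ADP/ATP carriers Slc25a5 and, chosen after its values were seen, Slc25a4 were lower in GSC, by differences of -2.62 and -2.09. Beside Pdha2, the X-linked Pdha1, chosen in the same way, differed by -1.60. Ldha and Pgk1, of common glycolysis, differed by -2.30 and -3.35, and Aldoc, the aldolase of brain, by -2.75. Not every testis form was higher in GSC. Ldhc was, as given above, but Pgk2 and Gapdhs, named after their values were seen, were not called (-0.33 and -0.38). Slc2a3, a glucose transporter, and Pdk1, which holds back pyruvate dehydrogenase, were higher in GSC by 3.59 and 3.02. Without the probe sets that can match several transcripts, the NSC count was 6 of 26. Ckb, the brain creatine kinase, was at 5.81 ± 0.09 in GSC and 13.39 ± 0.11 in NSC, and Pygl, liver glycogen phosphorylase, at 10.34 ± 0.16 and 3.17 ± 0.12.

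**Figure D3:**
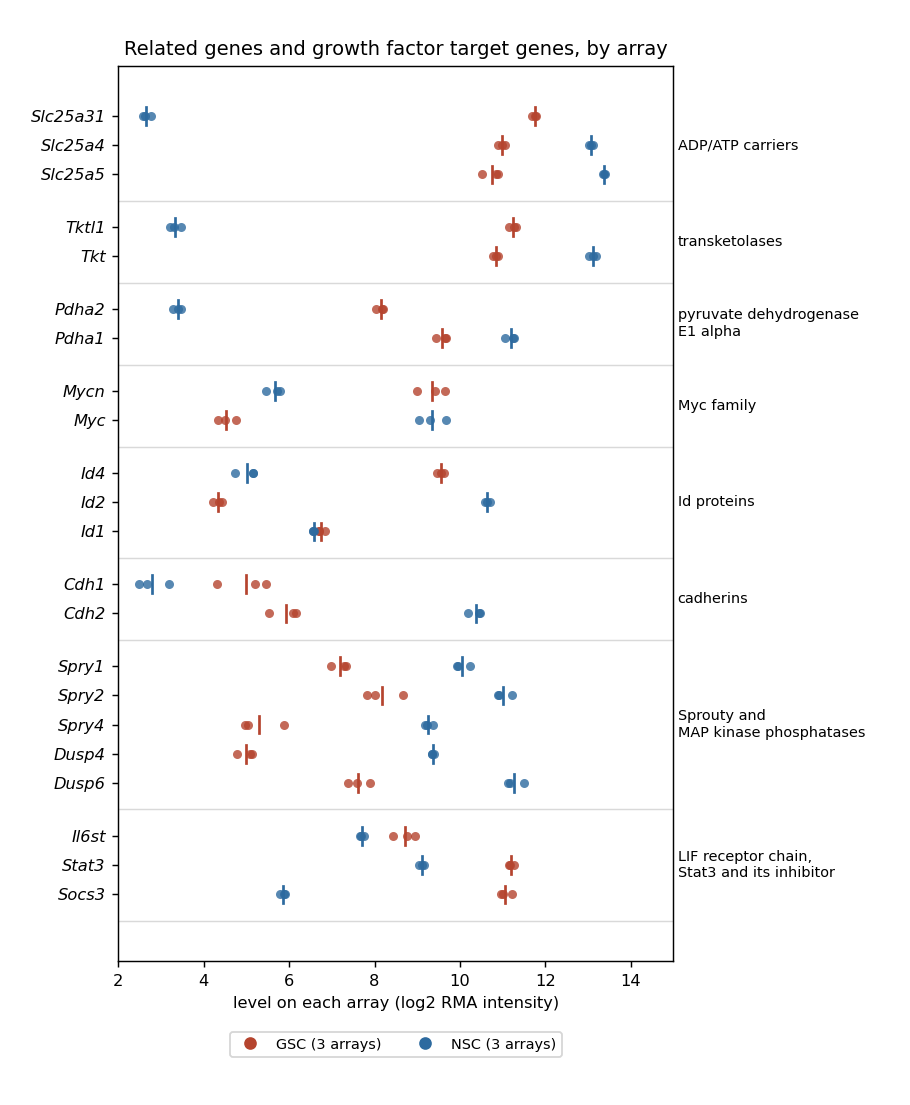
Level of related genes and of growth factor target genes on each array (x axis, log2 RMA intensity); points are single arrays, red for GSC and blue for NSC, and short bars are means of 3 arrays. Slc25a31, Tktl1, Pdha2, Mycn, Id4 and Cdh1 are higher in GSC and their relatives Slc25a4, Slc25a5, Tkt, Pdha1, Myc, Id2 and Cdh2 higher in NSC, Id1 is close in both, and levels of different probe sets are not comparable with each other.

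Genes of lipid synthesis were higher in the neural cells. Of 26 genes of cholesterol and fatty acid synthesis 16 were higher in NSC and none higher in GSC, with a median of -1.25. Called members made up 61.5%, against 26.8% of all genes. Without probe sets that can match several transcripts, 1 of 24 members was higher in GSC. This was Acly, ATP citrate lyase, named after its values were seen, whose difference was 0.85 on the probe set used here and 1.05 under that setting. Scd1 and Scd2, desaturases that make oleic acid, differed by -5.01 and -3.55, and Fads1, a desaturase of polyunsaturated fatty acids, by -3.44. Scd1 varied among the GSC arrays, at 6.43, 5.49 and 4.82, all below the NSC arrays at 10.56, 10.69 and 10.52. Elovl6, a fatty acid elongase, and Nsdhl, of sterol synthesis, differed by -2.84 and -2.56. Dhcr7, the last enzyme of cholesterol synthesis, differed by less than the spread between arrays, at 10.31 ± 0.32 and 10.18 ± 0.04. Acaca, acetyl-CoA carboxylase, differed by 0.46 (adjusted p = 0.0329), under 2-fold. Lss, lanosterol synthase, was not called either (-0.40), but without the probe sets that can match several transcripts its difference was -3.35.

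Chromatin genes leaned toward GSC. Of 29 genes of DNA methylation and chromatin, 13 were higher in GSC and 4 in NSC (median 0.75), and of 32 Polycomb genes 14 and 3 (median 0.87). Called members made up 58.6% and 53.1% of these lists, against 26.8% of all genes. The first GSC count was 7 of 22 without probe sets that can match several transcripts. Scml2, an X-linked Polycomb-like protein of germ cells, read 11.41, 11.24 and 11.07 in GSC and 4.57, 4.27 and 4.59 in NSC. Morc1, needed to silence transposons in male germ cells, and Brdt, a bromodomain protein of the testis, differed by 6.34 and 4.79. Dnmt3b, a de novo DNA methyltransferase, and Hells, a remodeller that assists DNA methylation, differed by 3.40 and 3.00. Only 1 of the 3 probe sets of Hells was called, and they ranged from -0.34 to 3.00. Dnmt3a, named after its values were seen, was called higher in GSC, but 1 of its 5 probe sets was called the opposite way. These ranged from -2.82 to 2.67. Tet1, which oxidises methylcytosine, was on the other side, at 3.67, 4.09 and 3.57 in GSC against 7.95, 7.94 and 7.84 in NSC (difference -4.13, SE 0.14, adjusted p = 6.79e-16), and Tet2 differed by -2.12. The maintenance factor Uhrf1 and the deacetylase Hdac2 overlapped between the groups (differences 0.03 and 0.01). Of the 3 probe sets of Hdac2, which ranged from -1.14 to 0.24, 1 was called higher in NSC. Mbd4 (-1.04) lost its call with its probe sets averaged (0.17) and without GSC replicate 3 (-0.87) or NSC replicate 2 (-0.96).

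Within Polycomb, the 2 catalytic subunits went apart. Ezh2, the main histone H3 methyltransferase, was at 8.85 ± 0.14 in GSC and 10.22 ± 0.07 in NSC (difference -1.37, SE 0.10). Its relative Ezh1 was at 9.24 ± 0.14 and 5.58 ± 0.14, a difference of 3.66 that was 0.51 and lost its call without probe sets that can match several transcripts. Pcgf5, a RING finger subunit, Mga, of a variant complex, and Mtf2, which recruits the Ezh2 complex, were higher in GSC by 4.12, 2.66 and 2.54. The core subunits Rnf2 and Ring1 were not called (-0.18 and -0.05). Among 14 histone variants and linker histones 3 were higher in NSC, the linker histone H1f2 (-3.31, but -0.01 without such probe sets), H2az1 (-2.02) and H2ax (-1.98). The share called in this list was 21.4%, against 26.8% of all genes. The germ cell linker histones H1f6, H1f7 and H1f8 were near or under 5 in both groups.

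Cell cycle genes were called in both directions. Of 32 G1 and p53 pathway genes 12 were higher in NSC and 7 in GSC, or 59.4% called, with a median of -0.57. Of 35 replication and mitosis genes 6 were higher in NSC and 2 in GSC (1 with probe sets averaged per gene), or 22.9% against 26.8% of all genes. The median of this list was 0.40, toward GSC, the opposite of the balance of its calls. Ccnd1, cyclin D1, read 8.64, 8.37 and 8.30 in GSC and 12.04, 12.26 and 11.87 in NSC. Cdkn2c, the CDK inhibitor p18, read 5.54, 5.53 and 5.50 against 9.77, 9.71 and 9.53. The differences were -3.62 and -4.15 (adjusted p = 1.82e-12 and 1.22e-13). Cdkn1a, the inhibitor p21, and Ccnd2, cyclin D2, differed by -2.48 and -1.82, and Ccnd3, cyclin D3, by 1.60 in the direction of GSC. Rrm2, the ribonucleotide reductase subunit of S phase, differed by -3.73, Mki67, the proliferation antigen, by -1.44 and Cdk1, the kinase of mitosis, by -1.54. The replication gene Mcm5 was not called, at 11.39 ± 0.07 and 11.62 ± 0.07, but 1 of its 3 probe sets was called higher in NSC. Aurkc, the Aurora kinase of germ cells, was higher in GSC by 2.69. The GSC count of the first list was 4 without the MEF-high genes.

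**Figure D4:**
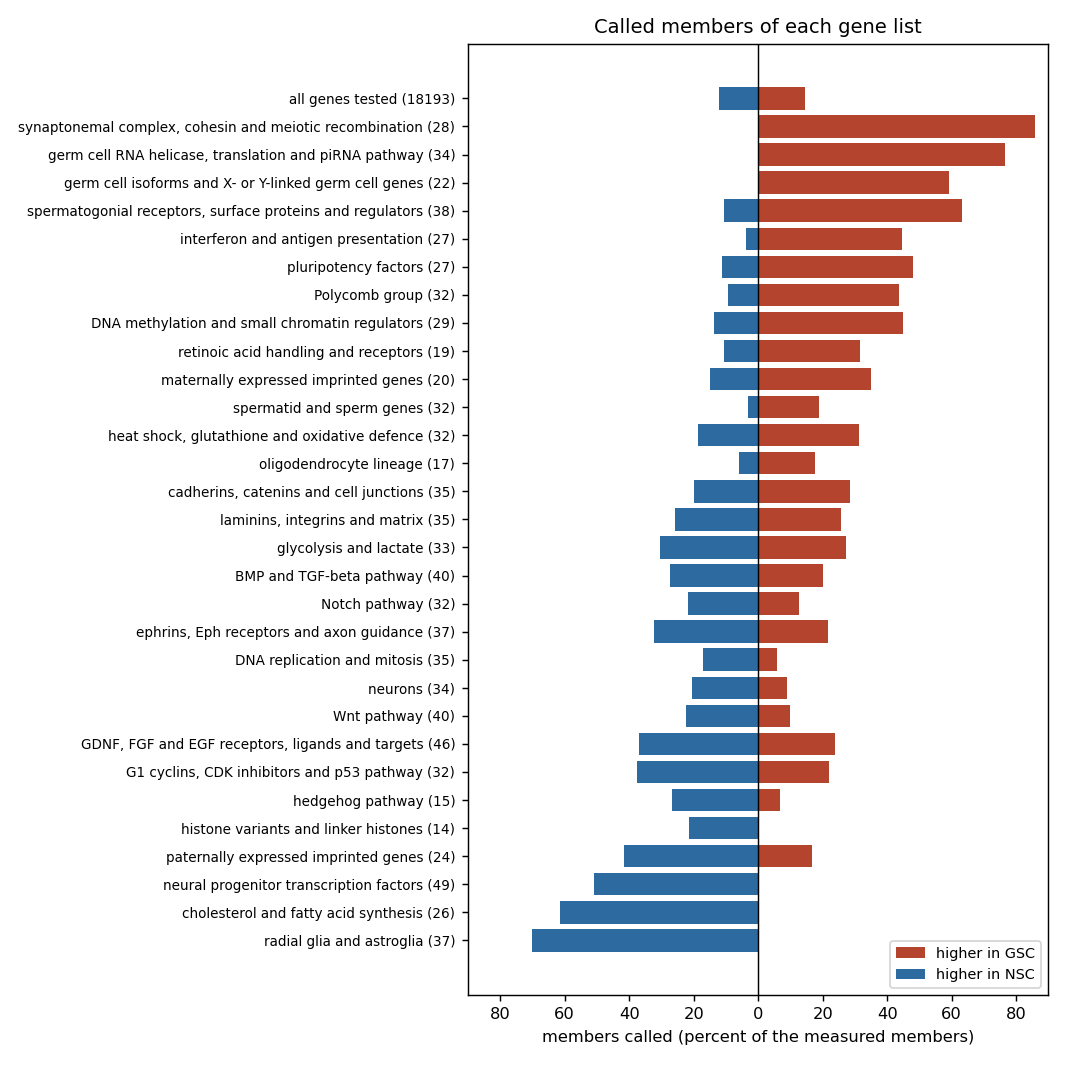
Percent of the measured members of each gene list called higher in GSC (red, to the right) and higher in NSC (blue, to the left); the number of members stands in brackets and all 18193 genes are the top bar. Meiosis and piRNA genes reach furthest toward GSC (24 of 28 and 26 of 34), and radial glia, lipid synthesis and neural transcription factor genes furthest toward NSC (26 of 37, 16 of 26 and 25 of 49).

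Other signalling lists had members on both sides. The share called was 34.4% for Notch, 32.5% for Wnt, 33.3% for hedgehog and 47.5% for BMP and TGF-beta genes, against 26.8% of all genes. The first 3 shares are near that of all genes. Of 32 Notch genes 7 were higher in NSC and 4 higher in GSC, and Notch1, a receptor that maintains neural stem cells, was at 6.48 ± 0.59 in GSC and 9.66 ± 0.14 in NSC. Of 40 Wnt genes 9 were higher in NSC and 4 in GSC (2 without the MEF-high genes). The receptors Fzd9 and Fzd1 and the R-spondin receptor Lgr5 differed by -4.51, -4.50 and -3.50, while Sfrp1, a secreted Wnt inhibitor, was higher in GSC by 3.00. Of 15 hedgehog genes 4 were higher in NSC and 1 in GSC. Gas1, a hedgehog co-receptor, differed by -5.00, at 7.22 ± 0.21 and 12.22 ± 0.04, while Smo (-1.48), Gli2 (-1.66) and Cdon (-1.32) were under 2-fold with their probe sets averaged. Of 40 BMP and TGF-beta genes 11 were higher in NSC and 8 in GSC (3 without the MEF-high genes). Among them the receptors Bmpr2 and Tgfbr2, the transducer Smad1 and the ligand Tgfb2 differed by -3.52, -2.86, -2.87 and -3.79.

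Retinoic acid genes showed carriers and a target in GSC. Of 19, 6 were higher in GSC and 2 in NSC, or 42.1% called against 26.8% of all genes. Stra8, which retinoic acid induces before meiosis, read 9.50, 9.56 and 9.56 in GSC and 4.95, 5.48 and 4.97 in NSC (difference 4.41, SE 0.38, adjusted p = 2.28e-09). The carriers Crabp1 and Crabp2 differed by 4.69 and 4.83, and their MEF means were 11.40 and 8.44. Rbp4, the retinol binding protein, differed by 3.70. The degrading enzyme Cyp26a1 was at 4.82 ± 0.17 and 4.73 ± 0.45. Rarb (-1.04), a receptor and target, lost its call without NSC replicate 1 or 2 (-0.94 each).

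Guidance and matrix genes had members on both sides. Of 37 ephrin and guidance genes 12 were higher in NSC and 8 in GSC (5 without the MEF-high genes, and 5 with probe sets averaged per gene). Plxna2, a semaphorin receptor, differed by -5.06, Ntn1, the ligand netrin, by -3.85 and Nrp1, a co-receptor of semaphorins and VEGF, by -3.40. Slit3, a repellent ligand, was higher in GSC by 2.36. Of 35 laminin, integrin and matrix genes 9 were higher in each group. Called members made up 54.1% of the guidance list and 51.4% of this list, against 26.8% of all genes. The integrin chains Itgb8, Itga4, Itgav and Itga8 differed by -5.93, -4.40, -4.29 and -4.10. Toward GSC lay Reln, the secreted protein reelin (4.04), with a MEF mean of 4.05, and the basement membrane genes Col18a1 (3.85), Nid2 (2.90) and Nid1 (2.56), the last with a MEF mean of 11.42. The GSC count of this list was 4 without the MEF-high genes.

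Imprinted genes, which are expressed from 1 parental copy, divided as well. Of 24 paternally expressed genes 10 were higher in NSC and 4 in GSC, or 58.3% called against 26.8% of all genes. Nap1l5 read 4.46, 4.53 and 4.57 in GSC and 11.50, 11.38 and 11.18 in NSC, and Mest and Peg12 differed by -4.60 and -3.95 (adjusted p = 8.94e-19, 1.72e-17 and 8.68e-10 for the 3 genes). Peg3 and Inpp5f overlapped between the groups, with differences of -0.10 and 0.03. The difference of Sgce (-2.87) was -0.14 without probe sets that can match several transcripts. All 4 genes higher in GSC, Slc38a4, Igf2, Dlk1 and Ddc, are among the MEF-high genes, which are defined partly by a low NSC level. Of 20 maternally expressed genes 7 were higher in GSC and 3 in NSC, or 50.0% called. The count higher in GSC was 2 without the MEF-high genes. Igf2r, which clears Igf2, and Grb10, an adaptor that restrains growth, differed by 3.36 and 3.22, with MEF means of 8.29 and 12.08.

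Stress and interferon genes also differed. Of 32 heat shock and redox genes 10 were higher in GSC (6 without the MEF-high genes) and 6 in NSC. Called members made up 50.0% of this list and 48.1% of the interferon list below, against 26.8% of all genes. The heat shock genes Hspa1b and Hspa1a, which are near-identical copies and cannot be told apart with certainty, differed by 3.59 and 2.28, and Txn1, thioredoxin, by -2.94. Of 27 interferon and antigen presentation genes 12 were higher in GSC and 1 in NSC, and the first count was 6 of 18 without probe sets that can match several transcripts. Gbp2, an interferon-induced GTPase, read 9.69, 9.51 and 9.18 in GSC and 3.51, 3.32 and 4.14 in NSC, against means of 6.64 in MEF and 3.80 in ESC. Oasl2 and Irf1, also interferon-induced, differed by 5.70 and 3.81. Ifitm1, a surface protein of germ cells and ESC, differed by 5.83 and its neighbour Ifitm2 by -3.14, whereas B2m, the light chain of MHC class I, overlapped between the groups, at 10.65 ± 0.09 and 10.72 ± 0.06. These results stand beside the macrophage markers above, whose part in them was not tested.

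Several of the 20 largest differences in each direction belong to no list. Toward GSC these included Rpl39l, a ribosomal protein form enriched in testis, at 12.60 ± 0.03 in GSC and 4.61 ± 0.31 in NSC, and Stk31, a Tudor kinase of germ cells, at 10.91 ± 0.15 and 2.83 ± 0.08. Mpzl2, an adhesion protein of epithelia, and Baiap2l1, an actin regulator, differed by 7.51 and 7.18. Lyz1, whose sequence is close to Lyz2, differed by 8.55, but by 0.15 once probe sets that can match several transcripts were left out. Toward NSC they included Kitl, the ligand of the receptor Kit, which read 4.06, 4.73 and 3.76 in GSC and 10.64, 10.53 and 10.29 in NSC. Chl1, a neural adhesion molecule, Grm5, a glutamate receptor, Car2, a carbonic anhydrase, Adam12, a metalloprotease, and Trib2, a pseudokinase, differed by -6.99, -6.25, -6.44, -6.43 and -6.22. Calcrl, a peptide receptor, differed by -6.54, but by 0.20 without such probe sets.

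The brightest genes that were not called were general ones. Among the 20, 17 were ribosomal protein genes, and Rps2 was at 14.03 in both groups and Rplp0 at 13.84 ± 0.03 and 13.67 ± 0.05. The elongation factor Eef1a1 differed by -0.10. Actb, cytoplasmic actin, differed by -0.68 (adjusted p = 1.39e-06). Without probe sets that can match several transcripts, its difference was 2.13. On the control probe sets of Actb, the 3′ minus 5′ gap, a sign of RNA integrity, was 1.25 on GSC array 1, 0.51 and 0.49 on the other GSC arrays and 0.27 to 0.33 on the NSC arrays. Its part in the results was not tested, and without GSC replicate 1 the count of calls was 4811.

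By chromosome, the X stood at both ends. Of 617 X-linked genes 131 were higher in NSC (21.2%) and 90 higher in GSC (14.6%, the same share as for all genes). Yet 22 of them, or 3.57%, were at least 16-fold higher in GSC, and among the autosomes chromosome 3 had the highest share, 1.75%. On the Y it was 2 of 9 genes. Among the 22 were Nxf2, Tktl1, Taf7l, Scml2 and Tex11, described above. Of 9 Y-linked genes 4 were higher in GSC, which were Uba1y, Usp9y, Zfy2 and Kdm5d. Eif2s3y was measured in both, at 8.90, 9.26 and 8.74 in GSC and 9.25, 9.13 and 9.12 in NSC, so RNA of a Y-linked gene was present in both cell types.

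**Figure D5:**
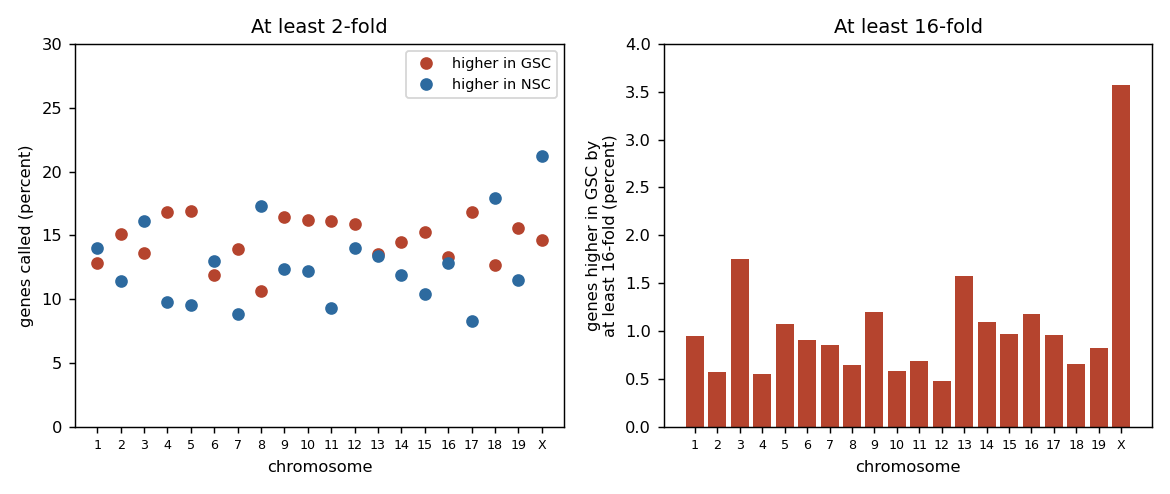
Percent of genes on each chromosome called at least 2-fold higher in GSC (red) or NSC (blue), left, and at least 16-fold higher in GSC, right; the x axis is the chromosome and Y with its 9 genes is left out. Among the chromosomes drawn, the X has the highest share at 16-fold (3.57%) and the highest share of genes higher in NSC (21.2%).

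Set against the other 4 groups of the series, 1926 of the 2663 genes higher in GSC (72.3%) had their highest mean of all 6 groups in GSC. For the 2214 genes higher in NSC this was 1369 (61.8%), with the highest mean in NSC. Highest by at least 2-fold were 901 (33.8%) in GSC and 619 (28.0%) in NSC. These genes were already chosen as higher in GSC or in NSC, and the share over all genes was not counted. Etv5, Myc and Id2 on the NSC side were also high in ESC, at 9.80, 7.94 and 10.31, while Olig1, Olig2, Gpm6a and Chl1 were under 5 there.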

How the data were processed

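Total RNA of the 20 samples was hybridised to 1-colour Affymetrix mouse arrays. The deposited values are log2 intensities. Per the submitters' processing notes the authors used RMA, and per the labels they worked in Bioconductor. Whether all arrays were normalised together is not given in the sources used here. The values were used as deposited. Of 45101 probe sets, 64 are controls, 34945 have 1 gene symbol, 932 several and 9160 none in the annotation table, and 34741 symbols were taken from RefSeq by gene number. The probe set of highest mean represented each of the 18193 genes.

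limma 3.58.1 in R 4.3.3 fitted the 6 group means to all 20 arrays with an empirical Bayes variance, and the p-values of GSC minus NSC were adjusted by Benjamini-Hochberg over all genes. The number of arrays, 3 in each group, limits the precision. On simulated data of 18193 genes, the fit called 42% of genes shifted by 1, 98% of those shifted by 1.5, 98% by 2 and 100% by 3 on the log2 scale, with 0 false calls. A shift of 1 lies on the call limit itself, and most genes were set equal in both groups. The simulated noise was independent between arrays, so the simulation does not cover arrays that share a culture. Errors are SDs over 3 arrays or the SE of the fit.

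The members and the 30 gene lists were chosen with earlier results of these data known, so lists are described by counts and medians without a test of their own. Named are the markers; from each list up to 5 members called in each direction with the largest differences and up to 3 uncalled members with the smallest; the 20 largest differences in each direction among called genes without overlap; and the 20 brightest uncalled genes. Other genes were chosen after their values were seen, which holds for the marker genes of other cell types named, for Usp9y, Zfy2, Kdm5d, Eif2s3y and Megf9, and for those said to be so chosen. Promoters are RefSeq's, build GRCm38.p6, matched by symbol for 14452 of the 18193 genes. The motifs were searched on both strands, and a gene counts once. Alternatives changed the scaling, the probe set, the filters, the threshold, the arrays in the fit and the replicates.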

Additional observations from a re-analysis of the deposited data

How the results depend on the processing

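The count of 4877 called genes (2663 higher in GSC, 2214 higher in NSC) moved most with the threshold and the feature tested. It was 1831 (897 and 934) at an adjusted p under 0.01 and 4-fold, 9721 (5616 and 4105) with no fold threshold, 3149 (1653 and 1496) with limma's treat against 2-fold, and 9632 (4499 and 5133) over probe sets in place of genes. It was 4807 (2418 and 2389) after another quantile normalization and 4800 (2380 and 2420) with each array centred on its median, 4042 with probe sets averaged per gene, 4291 without probe sets that can match several transcripts, 4363 without dim genes, and 4526 without the MEF-high genes. Leaving out 1 array at a time gave 4811 to 4946 calls, with 2539 to 2744 higher in GSC and 2164 to 2272 higher in NSC. Of the 386 named genes, which leave out Pgk2, Gapdhs and Dnmt3a, 301 kept their call under every alternative that could be run for them. With probe sets averaged per gene the sign turned for Boll (1.72), Gclm (-1.33), Mbd4 (0.17), Rbpj (-0.01) and Zic1 (-1.37), and without probe sets that can match several transcripts for Actb (2.13), Calcrl (0.20) and Rps20 (-1.88). These alternatives read other probe sets of the gene. Among the 445 called members of the lists, 4 had another probe set called the opposite way, and among the 445 not called, 63 had another probe set called.

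With the replicate number as a block, 4882 genes were called, the 4877 among them. The deviations of equal-numbered GSC and NSC arrays correlated at 0.051, 0.033 and 0.045, too little to take the numbers as pairs, although each array correlated best with its own number. Signal near the background limits the folds: 7942 of the 18193 genes had both means under 6.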
